A study of Mus musculus with 6 samples.

Results

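The genes described here encode 10 secreted ligands of the bone morphogenetic protein (BMP) and growth differentiation factor (GDF) family: Bmp2, Bmp3, Bmp4, Bmp5, Bmp6, Bmp7, Gdf5, Gdf6, Gdf10 and Gdf15. They were found on the array by the RefSeq accession each probe carries, which gave 12 of the 55681 probes and 10 of the 20676 named genes. Bmp4 and Gdf5 had 2 probes each and the others 1. RNA came from fibroblast cultures of the heart and of the skinned tail of male C57/Bl6-J mice, 8 weeks old in the sample labels and 8 to 10 weeks in the protocol, with no mutation and no drug. The tissue was cut up, digested with trypsin or collagenase type II, and the cells were grown for 5 days in medium with serum. Each tissue had 3 cultures, each pooled from 2 animals and read on 1 one-colour (Cy3) Agilent array. The sources used here do not say whether the heart and tail cultures came from the same animals, which enzyme each received, or whether the cells were sorted. The series title asks about cardiogenic genes in cardiac fibroblasts, and the tail cultures are the other fibroblast source it was set against.

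BMP ligands are made as precursors, cut by convertases and released as dimers. They bind paired type I and type II receptor kinases, which phosphorylate receptor SMADs. The SMADs enter the nucleus with SMAD4 and induce Id genes and other targets, while secreted antagonists such as noggin and chordin hold ligands away from receptors. In development the family patterns the heart, limbs, skeleton and tendons, and in adult organs fibroblasts are one source of its ligands.

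All values below are array signals on a log2 scale, given relative to the 75th percentile of the array they come from, so that 0 is that percentile. A level is compared between arrays only, never between probes. The scanner software marks each spot that is well above background, and a probe without that mark has a level that is only bounded from above. A pair of arrays stood apart, and they touch every result below.

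The array labelled heart 2 had 99.3% of its spots well above background and a median signal of 949, against 47.3% to 55.2% and 24.3 to 37.8 on the other 5 arrays. Across probes, its Pearson correlation with each other array was 0.742 to 0.764 on the log2 scale, and that of all pairs without it 0.957 to 0.988. The array labelled tail 1 was the one most like heart 1, at 0.988, and correlated with tail 2 and tail 3 at 0.969 and 0.957. Among the 2933 features that separated heart 1 and 3 from tail 2 and 3, tail 1 lay nearer to the heart arrays at 2894. Heart 2 lay nearer to the heart arrays at 1220 of the 2827 such features measured on it. Neither array was moved to the other group. Results are given for all 6 arrays by label, for 6 arrays with array weights (each array counted by how well it fits its group), and for the 4 arrays left without heart 2 and tail 1. Tail 1 was left out because of its expression values, so p-values on the 4 arrays are too small by an unknown amount. The array weights were set from the same expression values, so the weighted p-values share this limit.

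Compared by label, none of the ligands passed the test. Limma's moderated test called 0 of 20197 features (0%) at a Benjamini-Hochberg adjusted p under 0.05, with 464 at an unadjusted p under 0.05 and a smallest adjusted p of 0.188. Without heart 2 but with tail 1 it called 0 of 20281, with 583 under 0.05 unadjusted. Of the 10 ligands 8 were bright enough to be tested, and Gdf10 and Bmp3 were under 0.05 unadjusted. On heart 1 and 3 against tail 2 and 3 the same test called 2933 of 20567 features (14.3%), 1591 higher in heart (7.74%) and 1342 lower (6.53%). There 9 ligands were tested and 6 passed. Gdf6, Bmp6 and Bmp3 were higher in the heart cultures, and Bmp5, Bmp4 and Gdf10 were lower. Of these, Bmp3, Bmp5 and Gdf6 entered the test through their brighter group alone, and the filter favours a difference for such a probe. The median difference over the 9 was -0.90, against -0.06 over all features tested. The 9 split in direction, and their median turned sign with the arrays used. It was 0.32 over the 8 ligands tested by label (all features -0.35). Without tail 3 of the 4 arrays it was 0.55 (all features -0.10). Heart 1 and 3 did not overlap with tail 2 and 3 at 8 of the 9, 4 higher and 4 lower in heart, as at 62.3% of all features, 25.9% higher and 36.4% lower. With array weights, 2216 of 20197 features were called (11%, with 5.96% higher and 5.02% lower in heart) and 6 of 8 ligands passed: Gdf6, Bmp3 and Bmp6 higher in heart, and Bmp2, Bmp4 and Gdf10 lower. The weights were 0.0334 for heart 2 and 0.452 for tail 1, and 1.34 to 7.01 for the others. The weighted fit thus leans on the same 4 arrays and is no separate support for their calls.

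**Figure D1:**
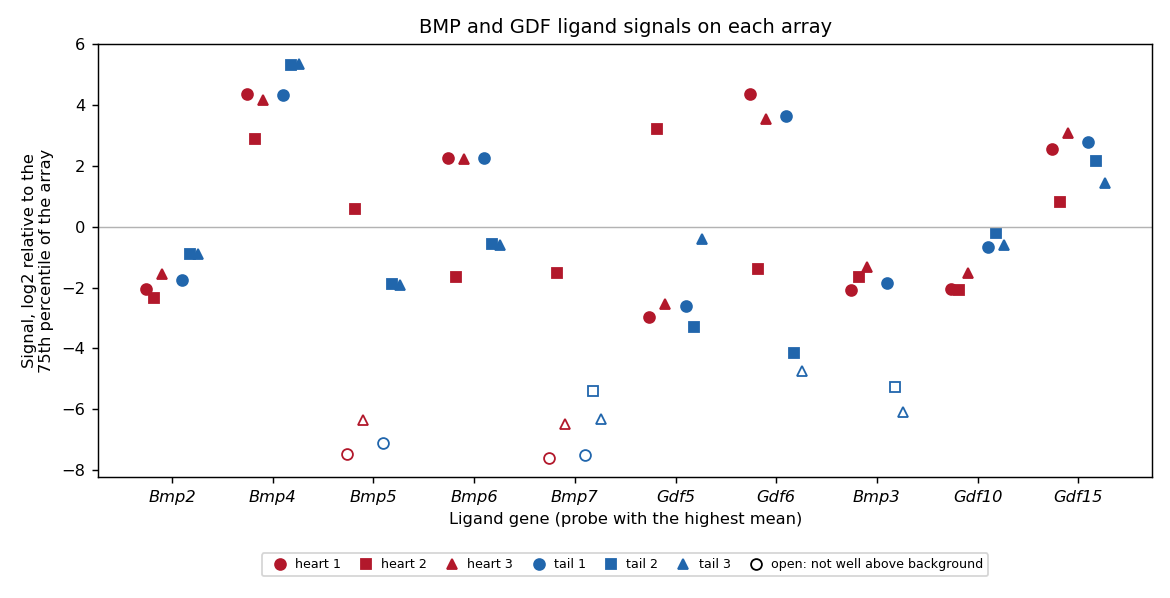
Signal of the 10 ligands on each array (log2 relative to the array's 75th percentile, 1 probe a gene), heart arrays in red and tail arrays in blue, with open symbols where the probe was not well above background. For Bmp6 and Gdf6, heart 1, heart 3 and tail 1 lie together above tail 2 and tail 3, while heart 2 lies apart from heart 1 and 3.

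Bmp6, Bmp4, Bmp5 and Gdf10, which passed on the 4 arrays, have a promoter sequence in the RefSeq table used here (GRCm38.p6, 250 bases before to 50 after the annotated start), and they are shown as the promoters of called ligands that the table holds. Each is written 5′ to 3′ on the strand of its gene. Capitals mark E boxes (CANNTG) and GC boxes (GGGCGG, which reads CCGCCC where it lies on the opposite strand).
Bmp6, chr13:38345466-38345765, plus strand: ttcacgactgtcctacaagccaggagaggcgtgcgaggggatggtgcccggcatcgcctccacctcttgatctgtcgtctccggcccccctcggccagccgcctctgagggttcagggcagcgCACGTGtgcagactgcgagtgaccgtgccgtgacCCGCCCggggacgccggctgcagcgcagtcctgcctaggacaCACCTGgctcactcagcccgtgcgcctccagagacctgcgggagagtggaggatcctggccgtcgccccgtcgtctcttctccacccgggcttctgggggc
Bmp4, chr14:46390620-46390919, minus strand: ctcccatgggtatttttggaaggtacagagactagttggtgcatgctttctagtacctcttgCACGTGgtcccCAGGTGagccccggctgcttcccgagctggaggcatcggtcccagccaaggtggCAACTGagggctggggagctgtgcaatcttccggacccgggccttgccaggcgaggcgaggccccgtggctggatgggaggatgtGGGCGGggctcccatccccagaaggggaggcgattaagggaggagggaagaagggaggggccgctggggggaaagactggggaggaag
Bmp5, chr9:75775115-75775414, plus strand: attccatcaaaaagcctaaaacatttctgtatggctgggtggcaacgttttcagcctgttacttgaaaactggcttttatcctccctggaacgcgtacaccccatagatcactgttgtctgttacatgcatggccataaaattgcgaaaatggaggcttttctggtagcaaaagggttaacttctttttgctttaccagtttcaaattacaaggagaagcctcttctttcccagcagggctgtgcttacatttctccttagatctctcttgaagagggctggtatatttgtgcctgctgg
Gdf10, chr14:33923337-33923636, plus strand: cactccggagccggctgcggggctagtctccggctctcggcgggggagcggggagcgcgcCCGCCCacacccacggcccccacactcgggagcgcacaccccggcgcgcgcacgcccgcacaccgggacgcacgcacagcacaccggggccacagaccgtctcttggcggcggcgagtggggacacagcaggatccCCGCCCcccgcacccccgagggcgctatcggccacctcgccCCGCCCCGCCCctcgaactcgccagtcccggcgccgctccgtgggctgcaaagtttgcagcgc
Motifs were searched on both strands. Besides these 2 there were 3 more, not set in capitals: a GC-rich element known for SMAD1 and SMAD5 binding, spelled GGCGCC, the core that GATA factors bind, spelled AGATAA, and the box bound by TBP, spelled TATAAA. The Bmp6 window is 69.3% G or C and holds 27 CG pairs, 2 E boxes at -127 and -51, and 1 GC box at -93. The Bmp4 window is 64% G or C and holds 12 CG pairs, 3 E boxes at -188, -177 and -123, and 1 GC box at -38. The window of Gdf10, at 77.3% G or C with 42 CG pairs, holds 4 GC boxes, of which the pair at -13 and -8 shares a base, and 1 GGCGCC at 17. Bmp5 differs from these windows in base content, with 43.3% G or C, 4 CG pairs and none of the 5 motifs. Over all 32851 promoters of the table the median was 52.7% G or C and 7 CG pairs. An E box was present in 72.3% of them, a GC box in 35.7%, GGCGCC in 11.9%, AGATAA in 11.2% and TATAAA in 13.6%. The matches describe letters in a window and show no binding.

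Bmp2 and Bmp4 are close relatives that signal through BMPR1A and BMPR1B with BMPR2, and both are needed for normal heart development in the mouse embryo. Bmp4 had signals of 4.38, 2.89 and 4.17 on heart arrays 1 to 3, against 4.35, 5.33 and 5.37 on tail arrays 1 to 3. The heart and tail arrays overlapped only through tail 1, which lay between heart 1 and heart 3. Bmp4 averaged 3.81 ± 0.81 in heart and 5.01 ± 0.58 in tail (SD, n = 3 each), a difference of -1.2 (SE 0.54, adjusted p = 0.726 by label). On the 4 arrays its difference was -1.07 (SE 0.16, adjusted p = 0.0174), a level 2.10-fold higher in tail. It no longer passed once tail 2 (adjusted p = 0.157) or tail 3 (0.177) was left out. The second Bmp4 probe was well above background on heart 2 alone and gives no level for the other arrays.

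For Bmp2 the signals were -2.04, -2.35 and -1.55 on the heart arrays, against -1.74, -0.89 and -0.90 on the tail arrays. Tail 2 and tail 3 were above every heart array, and tail 1 lay among them. The difference by label was -0.80 (SE 0.44, adjusted p = 0.726). The 4 arrays gave -0.90 (95% interval -1.47 to -0.32, adjusted p = 0.0669), and Bmp2 did not pass there. It passed without heart 3 (adjusted p = 0.0331) and with array weights on all 6 arrays (0.048).

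Bmp5, Bmp6 and Bmp7 form another branch, which binds ACVR1 among its type I receptors. Bmp6 is known as an endothelial product that sets hepcidin in the liver. Bmp6 had 2.26, -1.63 and 2.23 on the heart arrays, against 2.26, -0.57 and -0.61 on the tail arrays. Heart 1, heart 3 and tail 1 lay close together, and heart 2 was the lowest of all 6. By label the difference was 0.59 (SE 1.2, adjusted p = 0.811), with means of 0.95 ± 2.24 in heart and 0.36 ± 1.64 in tail (SD, n = 3 each). Bmp6 was 7.13-fold higher in heart on the 4 arrays (difference 2.83, SE 0.14, adjusted p = 0.00137), and it passed in each of the 15 settings run on those arrays. All 4 of these arrays had the probe well above background, so the filter did not choose it for its difference.

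Bmp5, best known from the mouse short ear mutation, ran the other way. Its signals were -7.47, 0.58 and -6.35 on the heart arrays, against -7.11, -1.89 and -1.92 on the tail arrays. The probe was well above background on heart 2, tail 2 and tail 3 and not on heart 1, heart 3 or tail 1, so by label it was not tested. In the comparison of 4 arrays its level in tail was at least 7.09 times that in heart, with a fitted difference of -5.01 (adjusted p = 0.00345). The probe entered this test through tail 2 and tail 3 alone, so its p and its calls add nothing to that bound. With normexp background correction the difference was -1.70.

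Bmp7, a kidney and eye morphogen that can form dimers with BMP2 and BMP4, gave no level in these cultures. Its signals were -7.59, -1.53 and -6.48 on the heart arrays, against -7.50, -5.39 and -6.33 on the tail arrays. Heart 2 was the single array on which the probe was well above background, and Bmp7 was tested in neither comparison.

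Gdf5 and Gdf6 are joint and limb factors of 1 subfamily. Gdf6 had 4.37, -1.40 and 3.53 on the heart arrays, against 3.65, -4.14 and -4.76 on the tail arrays, where tail 3 was not well above background. Heart 1, heart 3 and tail 1 were high and tail 2 and tail 3 low, with heart 2 in between. The difference by label was 3.92 (95% interval -1.5 to 9.34, adjusted p = 0.726). The fitted difference between heart 1 and 3 and tail 2 and 3 was 8.40 (SE 0.37, adjusted p = 0.00114), with the tail level well above background on 1 of 2 arrays. With the dim tail 3 set to its lowest signal marked well above background, heart was at least 263-fold higher. Gdf6 entered this test through the heart arrays alone, and with normexp its difference was 5.86. Gdf6 was also the single ligand of the 10 in the authors' deposited table of 433 probes, which gives it a log2 fold of 7.51 and a linear fold of 182 in heart over tail. That fold comes from arrays of this same series and is no separate measurement. Its column names give heart and tail and not the arrays used, and all 6 by label gave 3.92 here.

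Gdf5 differed between its own probes. The probe used in the test had -2.97, 3.22 and -2.54 on the heart arrays, against -2.60, -3.31 and -0.40 on the tail arrays. Heart 2 was far above the rest and tail 3 next, and the groups overlapped with and without heart 2 and tail 1. The other probe had -3.88, 0.94 and -4.14 on the heart arrays, against -3.53, -3.43 and -3.50 on the tail arrays, so tail 3 did not stand out on it. The difference for the tested probe was 1.34 by label (SE 1.60, adjusted p = 0.729). Heart 1 and 3 against tail 2 and 3 gave -0.90 (95% interval -3.52 to 1.71, adjusted p = 0.589), with the opposite sign. Leaving out tail 3 gave 0.55. Leaving out tail 2 gave -2.36 (adjusted p = 0.0289), which sets the single array tail 3 against a spread taken from heart 1 and heart 3.

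Bmp3 and Gdf10 (also called Bmp3b) are a divergent pair, and Bmp3 is known to oppose the bone-forming BMPs. Bmp3 had -2.08, -1.64 and -1.31 on the heart arrays, against -1.86, -5.26 and -6.10 on the tail arrays, where tail 2 and tail 3 were not well above background. Heart 2 lay with the other heart arrays for this gene, and tail 1 lay among them. On heart 2 Bmp6 (-1.63), Bmp7 (-1.53) and Gdf6 (-1.40) were near the same value, so its place there says little about Bmp3. The difference by label was 2.73 (SE 1.00, unadjusted p = 0.0268, adjusted p = 0.726), with means of -1.68 ± 0.39 in heart and -4.41 ± 2.25 in tail (SD, n = 3 each). Its level on heart 1 and 3 was at least 6.96 times that on tail 2 and 3. The fitted difference was 3.99 (adjusted p = 0.00677), for a probe that entered this test through the heart arrays alone. The normexp difference was 1.66, and without the filter on dim probes the adjusted p was 0.0603.

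Gdf10 was the ligand whose labelled groups did not overlap. Its signals were -2.04, -2.09 and -1.51 on the heart arrays, against -0.67, -0.19 and -0.58 on the tail arrays. Each heart array was below each tail array, tail 1 included, and tail 1 was nearer to the tail arrays for this ligand alone among the 9 compared. Groups without overlap occurred at 10.1% of the features tested by label, 7.93% with heart lower and 2.19% with heart higher. Bmp2 (-2.35), Bmp3 (-1.64), Bmp6 (-1.63), Bmp7 (-1.53) and Gdf6 (-1.40) were low on heart 2 too. Bmp4, Bmp5, Gdf5 and Gdf15 were higher on it. Its low value for Gdf10 therefore adds little. Without heart 2 the Gdf10 groups still did not overlap (difference -1.29, adjusted p = 0.695), as at 2469 of 20281 features with heart lower. Gdf10 averaged -1.88 ± 0.32 in heart and -0.48 ± 0.26 in tail (SD, n = 3 each), a difference of -1.40 (95% interval -2.31 to -0.48, unadjusted p = 0.00784, adjusted p = 0.726). Left to 4 arrays, Gdf10 was 2.62-fold higher in tail (SE 0.26 on the log2 scale, adjusted p = 0.0342), and it no longer passed once heart 1 (adjusted p = 0.064), tail 2 (0.187) or tail 3 (0.0893) was left out.

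Gdf15 is a distant member that acts on the brainstem receptor GFRAL and is induced by p53 and by the integrated stress response. It had 2.57, 0.82 and 3.10 on the heart arrays, against 2.79, 2.16 and 1.43 on the tail arrays. The groups overlapped by label, and heart 2 was the lowest of the 6. The difference by label was 0.04 (95% interval -1.51 to 1.59, adjusted p = 0.978). Without heart 2 and tail 1 it was 1.04 (95% interval 0.17 to 1.92, adjusted p = 0.125), with both heart arrays above both tail arrays, as at 25.9% of features. It passed in none of the 15 settings run on those arrays. The probe of Gfral was too dim to be tested.

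**Figure D2:**
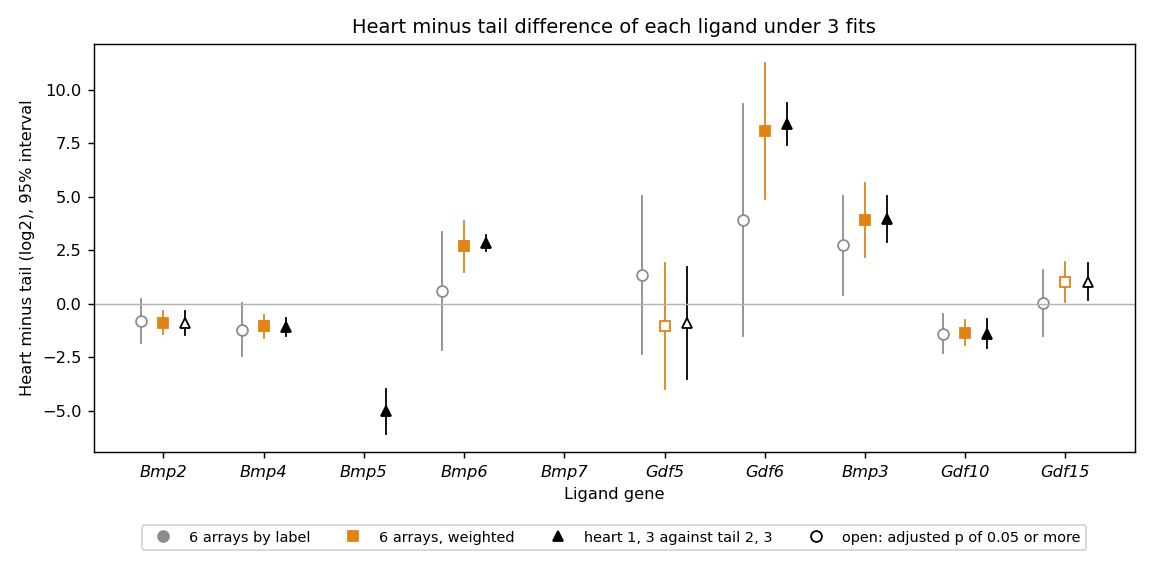
Heart minus tail difference of each ligand (log2, points) with its 95% interval (bars) by label on 6 arrays, on 6 weighted arrays and on heart 1 and 3 against tail 2 and 3, filled where the adjusted p was under 0.05. Gdf6 runs from 3.92 by label to 8.40 on the 4 arrays (a fitted value with tail 3 dim), and Gdf10 stays between -1.40 and -1.35 in all 3, which share the same scaling.

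The arrays also differed by their place on the slide. Heart 1, heart 2, tail 1 and tail 2 lay in its first row, and heart 3 and tail 3 in the second. Within the second row, which holds neither of the arrays that stood apart, heart 3 minus tail 3 was 2.84 for Bmp6, 1.67 for Gdf15, -1.19 for Bmp4, -0.93 for Gdf10, -0.64 for Bmp2 and -2.14 for Gdf5. Where 1 of these arrays was dim the difference has only a bound. It was at least 7.56 for Gdf6 and 2.72 for Bmp3 (higher on heart 3), and -2.26 or lower for Bmp5. Within the first row, with heart 2 and tail 1 kept, the difference of means had the opposite sign for Bmp6, at -0.53, Gdf15, at -0.78, Gdf5, at 3.08, and Bmp5, at 1.06. It had the same sign for Gdf6, at 1.74, Bmp3, at 1.70, Bmp4, at -1.21, Gdf10, at -1.63, and Bmp2, at -0.88, and dim values enter those of Bmp5 and Bmp3. Heart 1 minus tail 2 of that row was 2.83 for Bmp6, 0.41 for Gdf15, 0.33 for Gdf5, 8.52 for Gdf6, -0.95 for Bmp4, -1.85 for Gdf10 and -1.15 for Bmp2, with at least 2.88 for Bmp3 and -3.39 or lower for Bmp5. A row gives 1 or 2 arrays a group and no test.

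The rest of the pathway was read from 7 lists of genes, and by label limma called 0 of the 63 members tested, with 4 at an unadjusted p under 0.05. The 6 tested of 11 other BMP and GDF ligands gave no call on the 4 arrays in either direction, with 1, Gdf7, under 0.05 unadjusted. Their differences ran from -0.88 for Gdf1 to 1.91 for Gdf7 (adjusted p = 0.258 and 0.086), and their median was 0.05. Both genes were named after their values were seen.

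Of 15 receptors and co-receptors 13 were tested on the 4 arrays, and 3 were higher in heart and 5 lower, with a median of -0.01. Over the 66 tested genes of all 7 lists, 12.1% were higher in heart and 22.7% lower, against 7.74% and 6.53% of all features. The shared receptors did not pass: Bmpr1a, the main type I receptor of BMP2 and BMP4, differed by 0.12 (adjusted p = 0.63), and Bmpr2, the common type II receptor, by -0.01 (0.982). Acvrl1 (ALK1), the endothelial type I receptor, had 4.72, 0.59 and 4.98 on the heart arrays, against 4.85, 2.44 and 2.28 on the tail arrays. Heart 1, heart 3 and tail 1 were again the high arrays. Acvrl1 differed by 0.24 by label and by 2.49 on the 4 arrays (SE 0.17, adjusted p = 0.00258). Its co-receptor endoglin, Eng, differed by 1.55 (SE 0.18, adjusted p = 0.00946), a call lost without tail 2 (0.0691) or tail 3 (0.0788). Acvr2a, a type II receptor, was lower in heart by -2.64 (SE 0.18, adjusted p = 0.00236), and Ror2, a WNT5A receptor that also binds BMPR1B, by -2.25 (SE 0.15, adjusted p = 0.00239). Bmpr1b, the type I receptor that GDF5 prefers, had -1.97 and -1.72 on tail 2 and tail 3, was not well above background on heart 1, heart 3 and tail 1, and had no usable spot on heart 2. Its level in tail was at least 6.86 times that in heart. The fitted difference was -3.65 (adjusted p = 0.00471), and -1.31 with normexp. Bmpr1b entered this test through tail 2 and tail 3 alone, so its p adds nothing to the bound. The other 3 calls, outside the rule for named genes, were Rgmb, at 1.16, Tgfbr3, at -1.45, and Acvr2b, at -1.23.

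Of 16 secreted antagonists 13 were tested on the 4 arrays, with 2 higher in heart, 3 lower and a median of -0.52. Grem1, an antagonist that binds BMP2 and BMP4, had -7.45, -2.01 and -6.33 on the heart arrays, against -7.37, 0.01 and 0.56 on the tail arrays. It was not well above background on heart 1, heart 3 and tail 1, and on the 4 arrays its tail level was at least 32.2 times that in heart. The fitted difference was -7.17 (adjusted p = 0.00192), and -3.93 with normexp. Grem1 entered this test through tail 2 and tail 3 alone, so its p adds nothing to the bound. Chrdl1, a chordin relative, was dim on heart 3 and entered the test through the tail arrays alone. With heart 3 set to its lowest signal marked well above background, the tail level of Chrdl1 was at least 50.7 times that in heart. Its fitted difference was -6.67 (adjusted p = 0.00296), -4.15 with its dimmest probe and -3.75 with normexp. Nbl1 (DAN) had 3.95, 3.94 and 4.05 on the heart arrays, against 3.996, 6.29 and 6.25 on the tail arrays, a difference of -2.27 on the 4 (SE 0.15, adjusted p = 0.00212). Heart 2 lay with heart 1 and 3 for Nbl1, and so did tail 1. Chrdl2, another chordin relative, was dim on tail 2 and tail 3 and entered the test through the heart arrays alone. It was at least 1.54-fold higher in heart. The fitted difference was 2.43 (adjusted p = 0.00964), and 0.84 with normexp. The call was lost without heart 3, where the difference was 2.35. Bmper, which modulates BMP4 in endothelium, had 3.74, 0.12 and 4.09 on the heart arrays, against 4.14, 1.63 and 1.71 on the tail arrays. It was the other antagonist higher in heart on the 4 arrays, by 2.24 (SE 0.18, adjusted p = 0.00374), and differed by 0.16 by label. In the authors' deposited table Nbl1 has a log2 fold of -2.04 in heart over tail. Of the target genes described below it holds Dlx5 (-4.30), Id4 (-1.63), Id2 (1.53) and Id3 (1.33).

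**Figure D3:**
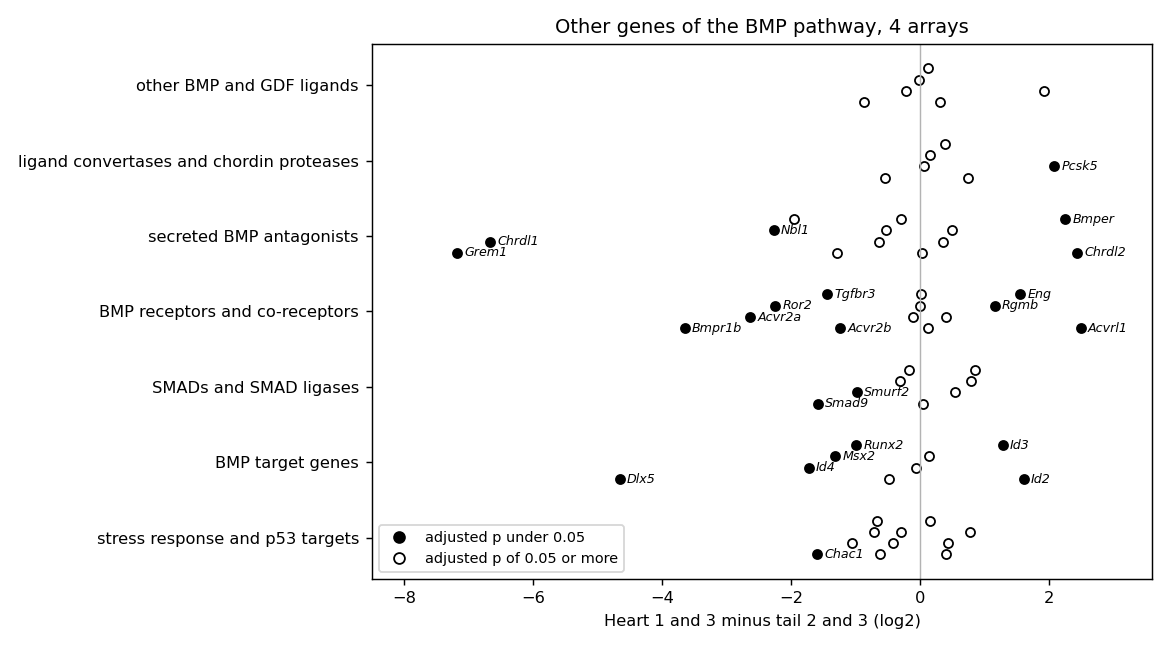
Heart 1 and 3 minus tail 2 and 3 (log2) for the tested genes of 7 lists of the BMP pathway, filled and named where the adjusted p was under 0.05. Points of genes that are dim in one group, such as Grem1 and Chrdl1 at the far left (lower in heart), are fitted values and not bounds.

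Among signal transducers and targets, calls on the 4 arrays went in both directions. All 8 SMADs and SMAD ligases were tested on the 4 arrays, with 0 higher, 2 lower and a median of -0.07. Smad9, the third receptor SMAD of the BMP branch, was lower in heart by -1.58 (SE 0.17, adjusted p = 0.00806), a call lost without tail 3 (0.0739). Smurf2, a ubiquitin ligase of the pathway, was lower by -0.98 (SE 0.17, adjusted p = 0.028), a call lost without heart 3 (0.0534), tail 2 (0.189) or tail 3 (0.248).

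Of 11 target genes 9 were tested on the 4 arrays, with 2 higher in heart, 4 lower and a median of -0.48. Id1, the most used readout of BMP signalling, had 5.63, 3.73 and 4.86 on the heart arrays, against 4.73, 5.12 and 5.09 on the tail arrays. The groups overlapped, and the difference on the 4 arrays was 0.14 (SE 0.29, adjusted p = 0.789). Id2 and Id3, the same kind of dominant-negative bHLH factor, differed by 0.10 and -0.16 by label. On the 4 arrays they were higher in heart by 1.61 (SE 0.16, adjusted p = 0.00687) and 1.28 (SE 0.14, adjusted p = 0.00822). Both calls were lost without tail 2 (0.0668 for Id2 and 0.0937 for Id3) or without tail 3 (0.0516 and 0.103). Id4 was lower in heart by -1.73 (SE 0.23, adjusted p = 0.0133), lost without tail 2 (0.0689) or tail 3 (0.0774). Dlx5, a bone and limb homeobox gene, was not well above background on heart 1, heart 3 or tail 1 and entered the test through tail 2 and tail 3 alone. Its level in tail was at least 15.2 times that in heart. The fitted difference was -4.65 (adjusted p = 0.00142, which adds nothing to the bound), and -2.07 with normexp. Msx2, another homeobox target, was lower in heart by -1.32 (SE 0.22, adjusted p = 0.026), lost without tail 2 (0.166) or tail 3 (0.114). The sixth call was Runx2, at -0.99, outside the rule for named genes.

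The list of ligand convertases and chordin proteases had 1 call among 6 tested of 7, with a median of 0.26, and 14.3% of all features were called. This was Pcsk5, a proprotein convertase, higher in heart by 2.08 (SE 0.32, adjusted p = 0.0206) and lost without heart 1 (0.0576), heart 3 (0.0821) or tail 2 (0.0576). The list of stress response and p53 targets, set beside Gdf15, had 1 call among 11 tested, with a median of -0.42, a share no larger than that 14.3%. Chac1, a glutathione-degrading target of the integrated stress response, was lower in heart by -1.59 (SE 0.19, adjusted p = 0.0107), lost without tail 2 (0.0831). The 19 pathway genes named with a call included 9 that passed without each of the 4 arrays in turn, and 4 of these 9 entered through their brighter group alone. A fit without 1 of the 4 arrays leaves a group of 1, whose spread is taken to be that of the other group.

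Some markers of other cell types also differed on the 4 arrays, while others of the same lists did not pass or went the other way. In RNA from a whole culture, fewer cells of a type and less RNA per cell cannot be told apart. All 9 fibroblast markers were well above background on every array, with a mean signal of 6.93, 4.33 and 7.19 on the heart arrays, against 7.06, 6.64 and 6.47 on the tail arrays. On the 4 arrays 5 of the 9 passed the test: Lum (2.95), Pdgfra (1.68), Dcn (1.60) and Col3a1 (1.28) were higher in heart and Thy1 (-1.88) was lower. Of all features 14.3% passed there, 7.74% higher in heart and 6.53% lower. Of 6 cardiomyocyte markers, 3, 6 and 1 were well above background on heart arrays 1 to 3, against 2, 4 and 5 on tail arrays 1 to 3. On the 4 arrays 4 of them were tested, and Actc1 and Mb passed as lower in heart (adjusted p = 0.0022 and 0.0089). Both probes were dim on heart 1 and heart 3 and entered the test through the tail arrays alone. Their count is no measure of an excess over the 6.53% of all features.

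Beside Bmp6, Gdf6 and Bmp3, which were higher in heart on the 4 arrays, 5 of 7 endothelial, 4 of 5 leukocyte and 3 of 5 mesothelial markers were higher too, against 7.74% of all features. Krt19 of the mesothelial list passed the other way, at -5.25 (adjusted p = 0.0038). The rest of these lists, Pecam1 (0.22), Kdr (-0.43), Csf1r (0.19) and Upk3b (2.06), did not pass. The endothelial markers summed to 14.2, 6.30 and 19.3 times the 75th percentile on heart arrays 1 to 3. Tail arrays 1 to 3 had 15.7, 21.8 and 16.4, and Tie1, Robo4 and Cldn5 were not well above background on tail 2 and tail 3. The leukocyte markers summed to 29.7, 7.26 and 55.3 on the heart arrays, against 42.7, 30.4 and 19.1 on the tail arrays, with Ptprc dim on tail 3. The mesothelial markers summed to 107, 2.71 and 150.3 on the heart arrays, against 129.7, 2.99 and 2.89 on the tail arrays. Heart 1, heart 3 and tail 1 were thus high and the other arrays low. Wt1 and Msln were not well above background on tail 2 and tail 3. A probe dim on tail 2 or tail 3 entered the test through the heart arrays alone, and the filter favours a difference for it. The marker counts set against 7.74% are therefore no measure of an excess.

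Beside Bmp5, Bmp4 and Gdf10, which were lower in heart on the 4 arrays, all 4 tendon markers and 4 of 5 smooth muscle markers were lower, and 3 of 5 tested cartilage and bone markers, against 6.53% of all features. Sox9 of the cartilage and bone list passed the other way, at 3.63 (adjusted p = 0.00106). The tendon markers summed to 0.461, 65.5 and 0.34 on heart arrays 1 to 3, against 0.434, 401.6 and 370.7 on tail arrays 1 to 3. Tnmd and Mkx were not well above background on heart 1 and heart 3. The smooth muscle markers summed to 535, 271.4 and 500 on the heart arrays, against 416, 1289 and 1057 on the tail arrays. The cartilage and bone markers summed to 8.89, 3.28 and 8.05 on the heart arrays, against 7.90, 5.68 and 5.26 on the tail arrays. Col10a1, Ibsp and Sp7 were dim on heart 1, heart 3 and tail 1. Thbs4 and Myh11 were dim on heart 3. A probe dim on heart 1 or heart 3 and lower in heart entered the test through the tail arrays alone, and the filter favours a difference for it. The marker counts set against 6.53% are no measure of an excess either. The part that any of these cell types has in the ligands' differences was not tested.

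**Figure D4:**
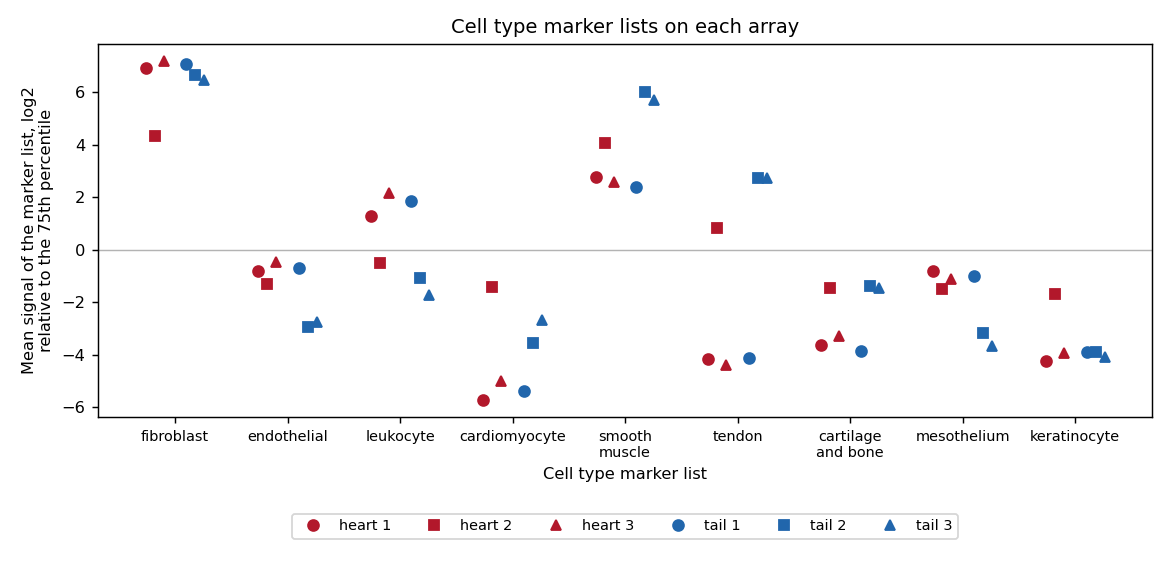
Mean signal of each cell type marker list on each array (log2 relative to the array's 75th percentile), heart arrays in red and tail arrays in blue. Tail 1 lies with heart 1 and heart 3 in the endothelial, leukocyte, smooth muscle, tendon and mesothelium lists, and the 9 fibroblast markers are well above background on all 6 arrays.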

How the data were processed

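The array files deposited by the authors hold spot intensity values from Agilent Feature Extraction 11.0.1.1, with the background subtracted and no scaling between arrays, per the file headers, together with flags of other kinds for signal well above background and for outlier spots. The authors' deposited table of 433 probes lists, for heart relative to tail, a fold change in log2 and a linear fold ratio. The sources used here do not say how it was normalized. Here each array's processed signals of non-control spots were divided by their 75th percentile and taken to log2, with outlier spots left out and repeat spots of a probe averaged. Probes were named by RefSeq accession (27235 probes, and 27 more from the deposited table; 28419 kept no symbol). A probe entered the test where every array of either group had it well above background. A gene with several such probes was read from its brightest on average.

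Groups came from the sample titles. The test was the two-sided moderated test of limma 3.58.1 in R 4.3.3 (eBayes after lmFit), adjusted over all features by Benjamini-Hochberg with a threshold of 0.05, and tested on simulated data first. Python 3.11.15 with pandas 2.3.3 and matplotlib 3.10.9 did the rest. Precision is limited by the number of arrays. A fold of "at least" sets the brighter group's mean against, on each dim array, either the signal of that probe or the lowest signal with the well-above-background mark, whichever was higher. Such a bound holds under this background correction alone. With normexp the differences of Bmp5, Bmp3, Gdf6, Bmpr1b, Grem1, Chrdl1 and Dlx5 were smaller than their bounds. The ligands, gene lists and the 4-array comparison were chosen with earlier results of these data known. Each list's called genes were named up to 5, with Id1, Id2, Id3, Bmpr1a, Bmpr2 and Grem1 always. A gene of the antagonist list is not reported here. Alternatives were quantile, median and normexp scaling (on median spot signals with offset 50, since these files have no mean signal), other filters and probe rules, a replicate or slide row block, array weights, and leaving out arrays.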

Additional observations from a re-analysis of the deposited data

How the results depend on the processing

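By label no alternative that kept all 6 arrays at equal weight and without a block called any ligand. The replicate number as a block called 120 features and 2 ligands, Bmp3 (adjusted p = 0.0482) and Gdf6 (0.00598), and without heart 2 that block called 0 features (239 unadjusted, smallest adjusted p 0.99987) and 0 ligands. Deviations of same-numbered heart and tail arrays from their group means correlated at 0.195, 0.259 and -0.33, and not every array correlated best with its own number. Those group means include heart 2 and tail 1, so the correlations can neither show nor exclude a pairing. The arrays share a number, and no pairing is known from the labels. Array weights called 2216 features and 6 ligands. Leaving out heart 2 and tail 1 together called 2933 features and 6 ligands. Leaving out 1 array called 0 to 239 features, the 239 without heart 1, and 0 ligands. On the 4 arrays, no filter on dim probes called 692 features and 3 ligands, and a filter of well above background on all arrays called 3 ligands. Leaving out 1 of the 4 called 1483 (without tail 3) to 4056 features and 4 to 7 ligands, with 1809 features without tail 2. A replicate block was not possible there, since the groups share 1 number.

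Signs turned for ligands not called by label. By label Bmp6 was -0.41 with quantile and -0.39 with median scaling, and its range with arrays left out was -0.0605 (without heart 1) to 2.83 (without heart 2 and tail 1), with -0.05 without heart 3. Gdf5 by label was -1.02 with array weights, -0.66 without heart 2, -0.90 on the 4 arrays and up to 2.44 without heart 1. Leaving out 1 of the 4 gave Gdf5 -2.36 (without tail 2) to 0.55 (without tail 3). Gdf15 by label was -0.95 with median scaling, -0.17 without heart 1, -0.43 without heart 3 and -0.31 without tail 3, and up to 1.04 on the 4 arrays. Leaving out 1 of the 4 gave Bmpr2 -0.0786 (without heart 3) to 0.0668 (without heart 1), with 0.0031 without tail 3, and Id1 -0.25 (without heart 1) to 0.53 (without heart 3). Of the pathway genes named as higher in heart on the 4 arrays, Eng (-0.19), Id3 (-0.16) and Pcsk5 (-0.01) were negative by label. Acvrl1 (0.24), Bmper (0.16), Id2 (0.10) and Chrdl2 (2.17) stayed positive. The named genes lower in heart on the 4 arrays and tested by label stayed lower, at -2.83 (Chrdl1) to -0.75 (Msx2). Median scaling moved the median of all features by label to -1.33, against -0.35. For Bmp2 on the 4 arrays quantile, median, normexp and weighted fits gave a call (adjusted p = 0.0481, 0.0391, 0.0456 and 0.0497). Without a filter Bmp4 (0.152) and Gdf10 (0.192) lost theirs. Sizes moved with the scaling too. By label Gdf10 was -2.40 with quantile and -2.38 with median scaling, and on the 4 arrays -0.95 with normexp. Bmp2 by label was -1.92 with quantile and -1.79 with median scaling, and Bmp4 -0.63 and -2.19. The causes were not tested. Where a probe is dim, the background correction sets its difference.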
